A study of Mus musculus with 7 samples.

Results

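The genes described here encode the machinery that fuses synaptic vesicles with the plasma membrane. They were the 73 rows of the deposited table, out of 18331 uniquely named genes, whose symbols belong to the synaptotagmin, syntaxin, VAMP, SNAP, synapsin, SV2, complexin, Munc13, Rab3, RIM, syntaxin binding protein, synaptophysin or synaptogyrin families, or are Nsf. The rule read symbols only, but it was set with earlier results of these data known. Of the 73 genes, 71 were above 0 in at least 1 library and 66 reached 1 TPM (a transcript level scaled by gene length and by the library's total) in at least 2 libraries and were tested. The set is wider than the synapse: it includes syntaxins that work at the Golgi, the endoplasmic reticulum and endosomes, and Snap91, which shares its symbol's root with the SNAP proteins but encodes the clathrin adaptor AP180.

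RNA had been measured in neurons sorted from the dissected arcuate nuclei of mouse embryos at E15.5 (embryonic age in days), 1 ng of total RNA per library. Pomc neurons, which make the precursor of appetite-suppressing peptides, had 4 libraries, and Npy neurons, which make the feeding-promoting neuropeptide Y, had 3 columns. The third Npy column equals the mean of the other 2 times a whole percent in all 15223 genes with a value and was left out, which left 4 Pomc and 2 Npy libraries. No treatment is labelled. Strain, sorting reporter and the animals behind each replicate are not stated in the sources used, and the p-values reflect no more than the scatter among these libraries, which may be technical.

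At a chemical synapse a vesicle is loaded, docked and primed, and a rise in calcium then triggers fusion. A SNARE protein on the vesicle (VAMP) zips together with SNAREs of the target membrane (syntaxin and SNAP-25), synaptotagmins sense calcium, complexins hold and release the assembled complex, Munc13 helps it assemble, and the ATPase NSF takes it apart for reuse. Peptides such as those made from Pomc and Npy leave the cell by dense core vesicles, which use many of the same proteins. In the embryo many of the synaptic genes among these are switched on as neurons differentiate, before most synapses have formed.

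The sort was reflected in the genes that name the groups. Pomc stood at 770, 352, 397 and 553 TPM in Pomc replicates 1 to 4 against 24.0 and 59.4 TPM in Npy replicates 1 and 2 (two-sided exact permutation test, p = 0.0667, the smallest that 15 splits allow), and Npy at 152, 2.11, 81.0 and 54.2 against 728 and 513 TPM (exact p = 0.133). Of 16 pan-neuronal genes outside the set, all but Thy1 were above 0 in every library. Thy1 was listed at 0 in Pomc replicates 3 and 4. The 16 genes summed to 7822 to 10770 TPM in the Pomc libraries and 6720 and 6100 TPM in the Npy libraries. All 6 oligodendrocyte precursor genes checked were higher in Npy neurons (limma adjusted p up to 0.0254). Their summed level was 228 and 207 TPM there and 0.444 to 2.64 TPM in the Pomc libraries, where Olig2 and Cspg4 were listed at 0 in all 4. Short RNA genes took 10.8 to 13.2% of TPM in the Pomc libraries and 14.1 and 17.3% in the Npy libraries. The part these differences play in the results was not tested, except where a value is given. In these bulk libraries, fewer cells of a type and less RNA per cell cannot be told apart.

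As a share of each library's TPM, the release machinery as a whole stood at a similar level in the 2 groups of libraries. Summed over the 73 genes it took 5905, 4547, 4709 and 5154 TPM in the Pomc libraries and 5032 and 4851 TPM in the Npy libraries, so both Npy libraries lay inside the Pomc range. Of the 66 tested genes, 1 was higher in Pomc neurons (limma, adjusted p under 0.05 over all 13845 tested genes) and none was lower, against 0.412% of all tested genes in either direction, 0.289% as higher and 0.123% as lower. At an unadjusted p under 0.05 there were 3 higher and 2 lower, against 7.36% of all tested genes. The median log2 fold change, Pomc minus Npy on log2(TPM + 1), was -0.0084 for the 66 genes and 0.015 for all tested genes, with 32 genes above and 34 below 0. With the libraries centred on the 16 pan-neuronal genes, a scaling chosen after the data were seen, these medians were -0.34 and -0.32, and 18 genes of the set lay above and 48 below 0. The calls over all genes were 40 higher and 17 lower, and 28 and 37 after that centring. In 11 of the 66, or 16.7%, the 2 groups did not overlap, against 15.9% of all tested genes; 6 were higher in Pomc neurons (8.05% of all genes) and 5 in Npy neurons (7.86%). The 95% interval of the difference lay within 1 log2 unit of 0, that is within a 2-fold change, for 23 of the 66 genes (34.8%, against 30.5% of all tested genes). For the other 43 a 2-fold difference in at least 1 direction was not outside the interval.

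**Figure D1:**
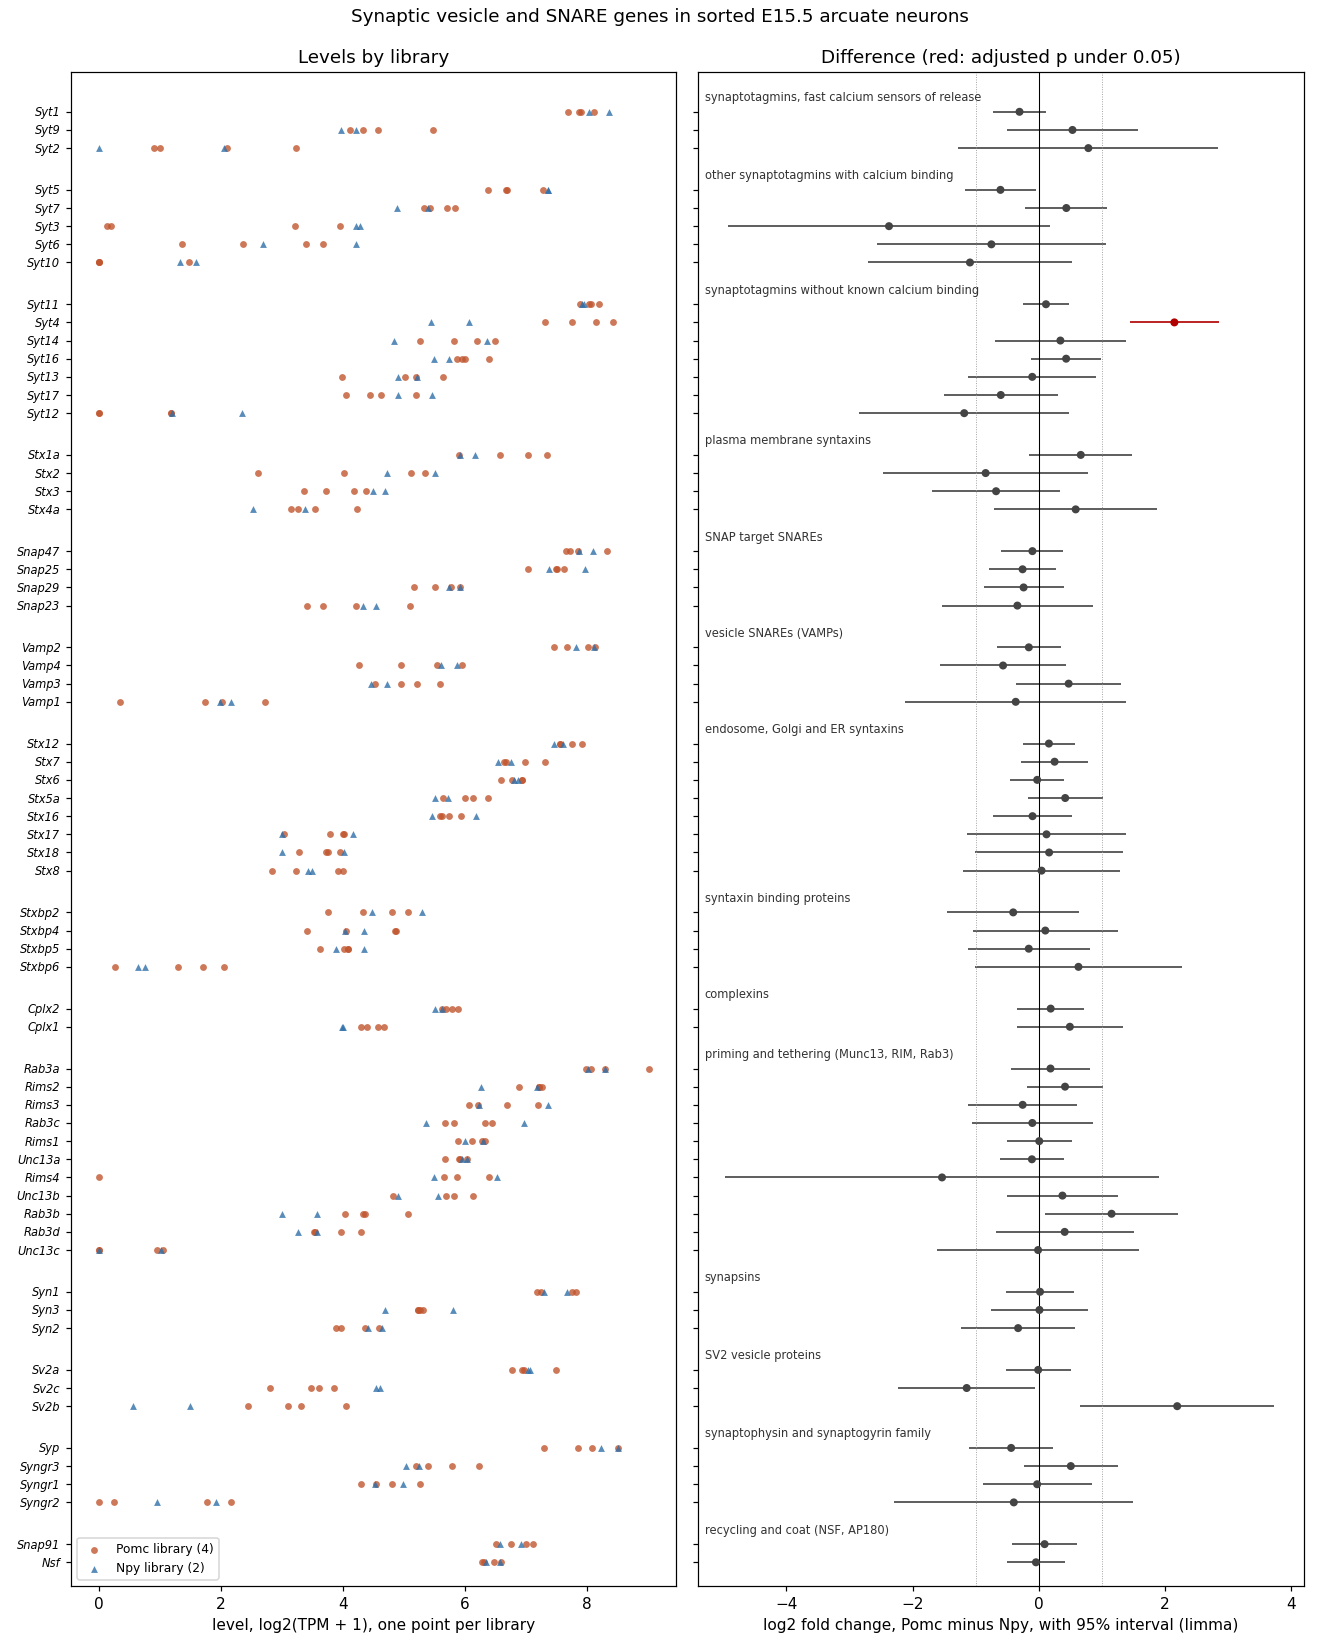
The left panel plots log2(TPM + 1) of 64 of the 66 tested genes in each library (circles for the 4 Pomc, triangles for the 2 Npy libraries), and the right panel its log2 fold change with the 95% interval from limma, by role; dotted lines mark 1 log2 unit. Only Syt4, in red, passed an adjusted p of 0.05, and the intervals widen as the level falls.

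Synaptotagmins, the calcium sensors, held the 1 gene that passed. Syt4 encodes a synaptotagmin of dense core vesicles and of the Golgi of developing neurons, whose first calcium-binding domain carries a substitution that weakens calcium binding. It lies on chromosome 18, 31437808 to 31447415 (GRCm38, RefSeq). It stood at 342, 158, 216 and 283 TPM in Pomc replicates 1 to 4 against 65.9 and 42.8 TPM in Npy replicates 1 and 2. All 4 Pomc libraries lay above both Npy libraries, the lowest of them, replicate 2, included. The difference was 4.45-fold (log2 2.15 ± 0.31, SE, 95% interval 1.44 to 2.86, limma adjusted p = 0.0243, higher in 4 of 4 Pomc libraries). By mean level Syt4 ranked 5 among the 73 genes in Pomc neurons and 28 in Npy neurons. With the libraries centred on the 16 pan-neuronal genes the log2 fold change was 1.82 ± 0.29 (adjusted p = 0.011), and with TPM rescaled without short RNA genes 2.10 ± 0.29 (adjusted p = 0.00827).

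The call of Syt4 ended without Pomc replicate 1, 3 or 4 (adjusted p = 0.0568, 0.0681 and 0.0644) or without Npy replicate 2 (0.333), with 1 prior variance for all genes (0.158) and without the filter on low values (0.094), while its log2 fold change stayed between 1.82 and 2.46 in every alternative run. Of the bases in its exons, 14.5% also lie in the antisense gene Gm26658 (GENCODE M21), and whether counting used strand is not stated in the sources.

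Syt1, the main fast calcium sensor of forebrain synapses (chromosome 10, 108497650 to 109010980), ranked 7 in Pomc and 2 in Npy neurons. It stood at 205, 237, 233 and 275 TPM in Pomc neurons against 328 and 259 TPM in Npy neurons. The groups overlapped, and the log2 difference of -0.30 ± 0.19 did not pass (limma adjusted p = 0.803, 95% interval -0.73 to 0.12). Set against each other within a library, the TPM of Syt1 was 0.599, 1.501, 1.08 and 0.972 times that of Syt4 in Pomc replicates 1 to 4 and 4.97 and 6.06 times in the Npy libraries. The pair was thus near parity in Pomc neurons, while Syt1 exceeded Syt4 several-fold in both Npy libraries. This ratio shares the Syt4 values with the test above and was not tested itself. Syt9 and Syt2, the other sensors of fast release, were lower, at 14.6 to 43.6 TPM and 0 to 8.40 TPM over the 6 libraries.

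Among synaptotagmins that bind calcium but serve slower or other fusion steps, 4 of 5 had log2 fold changes below 0 and none passed. Syt5, a sensor of dense core vesicles, stood at 154, 82.3, 101 and 102 TPM in the Pomc libraries and 164 and 163 TPM in the Npy libraries. The groups did not overlap, though Pomc replicate 1 came close (log2 -0.61 ± 0.25, limma adjusted p = 0.636). Syt3 was listed at 14.5, 0.154, 8.33 and 0.0964 TPM in the Pomc libraries, where replicates 2 and 4 were near 0, but at 17.6 and 18.6 TPM in both Npy libraries (log2 -2.37 ± 1.13, adjusted p = 0.715). Its log2 value was -3.07 without Pomc replicate 1, -1.82 without Pomc replicate 2 and -1.79 without Pomc replicate 4, and -3.53 and -1.34 with pseudocounts of 0.1 and 5. Syt7, the sensor of asynchronous release, stood at 39.3 to 56.3 TPM against 41.1 and 28.5 TPM (adjusted p = 0.808). Syt6 ranged from 1.59 to 17.7 TPM and Syt10 from 0 to 2.01 TPM over the 6 libraries.

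The synaptotagmins without known calcium binding other than Syt4 did not pass. Syt11, which restrains vesicle recycling, was among the most even genes of the set, at 260, 266, 237 and 294 TPM against 241 and 246 TPM (log2 0.12 ± 0.17, 95% interval -0.26 to 0.49). Syt16 lay higher in all 4 Pomc libraries (57.4 to 83.1 TPM) than in both Npy libraries (52.5 and 44.1 TPM), with a log2 difference of 0.44 ± 0.25 and an adjusted p of 0.788. Syt12 was near 0 in all libraries but 1, at 0 to 1.28 TPM in Pomc neurons and 1.31 and 4.08 TPM in Npy neurons (adjusted p = 0.807). Syt14, Syt13 and Syt17 had log2 fold changes of 0.34, -0.10 and -0.60, and Syt15, at most 0.551 TPM, was not tested.

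**Figure D2:**
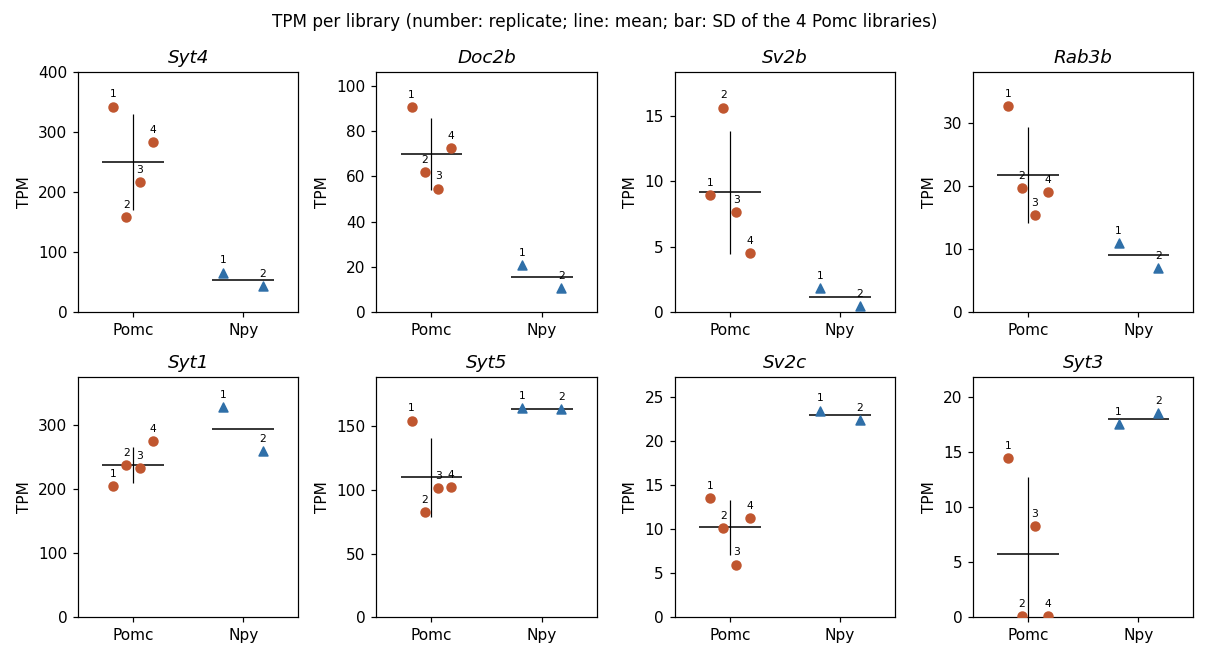
TPM in each library for 8 genes, with the replicate number beside each point, a line at the group mean and a bar for the SD of the 4 Pomc libraries; each axis starts at 0. Syt4 and Doc2b lie higher in every Pomc library and passed the test, Sv2b and Rab3b lie higher without passing, and Syt5, Sv2c and Syt3 lie higher in both Npy libraries without passing.

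The core fusion SNAREs were abundant and did not pass in either direction. Vamp2, the VAMP of synaptic vesicles, stood at 257, 174, 204 and 278 TPM in Pomc neurons against 226 and 277 TPM in Npy neurons (log2 -0.16 ± 0.22, 95% interval -0.66 to 0.35). Snap25, its main partner on the plasma membrane, stood at 131, 196, 182 and 179 against 248 and 166 TPM (log2 -0.26 ± 0.23, interval -0.78 to 0.27). Both groups overlapped in each gene, and the intervals leave out a 2-fold change either way. Snap47, a broadly expressed SNAP, was the most abundant of its family, at 201 to 319 TPM against 234 and 273 TPM. Snap29 and Snap23, the SNAP proteins of trafficking outside the synapse, stood at 34.8 to 59.7 and 9.61 to 33.4 TPM over all 6 libraries.

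Stx1a, a neuronal syntaxin of the release site, was the plasma membrane syntaxin with the lowest p in the Pomc direction. Stx1a stood at 161, 58.8, 94.4 and 129 TPM against 70.8 and 59.6 TPM. Its Pomc replicate 2 lay under both Npy libraries while the other 3 lay above them (log2 0.67 ± 0.36, adjusted p = 0.774). Of the syntaxins of other plasma membrane routes, Stx3 was higher in both Npy libraries (24.9 and 21.4 TPM) than in all 4 Pomc libraries (9.34 to 19.9 TPM; adjusted p = 0.81), and Stx2 and Stx4a overlapped. The 8 syntaxins of the endosome, Golgi and endoplasmic reticulum did not pass, with log2 fold changes of -0.10 to 0.42. The most abundant was Stx12, an endosomal syntaxin, at 187 to 241 TPM against 195 and 174 TPM. Of the exon bases of Stx18, 12.5% are shared on the opposite strand with Nsg1, an abundant neuronal gene, so its level of 7.02 to 15.3 TPM is uncertain.

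Other VAMPs were less abundant than Vamp2. Vamp4, of the Golgi and endosomes, stood at 18.3 to 60.7 TPM over the 6 libraries and Vamp3, the VAMP of constitutive recycling, at 21.1 to 47.5 TPM. Vamp1, the second synaptic VAMP, was at 0.28 to 5.63 TPM. Vamp2 exceeded Vamp3 by 3.67 to 9.27 times in the Pomc libraries and by 10.8 times in both Npy libraries, without overlap. Vamp8 was above 0 in Pomc replicate 2 only, at 2.44 TPM, and Vamp5 was listed at 0 throughout; neither was tested.

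Neither Nsf nor a complexin passed. Nsf stood at 76.4 to 95.6 TPM against 93.8 and 80.6 TPM (log2 -0.04 ± 0.21). Both complexin genes with a value lay slightly higher in every Pomc library than in both Npy libraries. Cplx1 stood at 23, 18.7, 19.99 and 24.6 TPM against 14.98 and 14.92 TPM (log2 0.49 ± 0.37, limma adjusted p = 0.833), and Cplx2 at 48.1, 54.4, 50.9 and 58.5 TPM against 48.1 and 44.3 TPM (adjusted p = 0.892). The gap between the groups in Cplx2 was small: Pomc replicate 1 and Npy replicate 1 differ only past the printed digits. Cplx2 was the larger form in all 6 libraries, and Cplx3 was listed at 0.

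Priming and tethering genes, which bring vesicles to the release site, included the most abundant gene of the set in Pomc neurons. Rab3a, the vesicle GTPase that binds RIM, stood at 516, 253, 267 and 315 TPM against 259 and 312 TPM (log2 0.19 ± 0.28), with Pomc replicate 1 above the rest. Its relative Rab3b was lower in level and lay higher in all 4 Pomc libraries. It stood at 32.7, 19.7, 15.4 and 19.1 TPM against 11 and 7.04 TPM, a log2 difference of 1.16 ± 0.47 with a 95% interval of 0.10 to 2.21 that did not pass over all genes (limma adjusted p = 0.612). Of its exon bases, 8.995% are shared with an antisense gene. The priming factor genes Unc13a and Unc13b (Munc13-1 and Munc13-2) had log2 fold changes of -0.11 and 0.38. Those of Rims1 and Rims2, scaffolds of the release site, and of their relative Rims3 were 0.0090, 0.42 and -0.25. Rims4 was listed at 0 in Pomc replicate 4 and at 49.7 to 83.4 TPM in the other 3 Pomc libraries, against 44.3 and 91.6 TPM in the Npy libraries.

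Among the vesicle's own membrane proteins, the 3 SV2 genes each had a different pattern. Sv2a, the major SV2 glycoprotein and the binding site of the epilepsy drug levetiracetam, was even, at 180, 108, 124 and 122 TPM in Pomc neurons and 134 and 130 TPM in Npy neurons (log2 -0.0076 ± 0.2288, interval -0.52 to 0.51). Sv2b lay higher in every Pomc library, at 8.91, 15.6, 7.62 and 4.48 TPM against 1.83 and 0.481 TPM (log2 2.20 ± 0.68, interval 0.66 to 3.74, limma adjusted p = 0.418). Sv2c lay the other way, at 13.5, 10.1, 6.01 and 11.2 TPM against 23.5 and 22.4 TPM (log2 -1.14 ± 0.48, interval -2.23 to -0.051, adjusted p = 0.65). Neither passed over all genes, and the difference between the 2 genes was not tested. Sv2c was above Sv2b in both Npy libraries and in Pomc replicates 1 and 4.

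The RNA of synaptophysin, an abundant vesicle membrane protein and a common synapse marker, ranked first of the set in Npy neurons. Syp stood at 364, 156, 230 and 269 TPM in the Pomc libraries and 300 and 364 TPM in the Npy libraries, and Pomc replicate 1 overlapped the Npy range (log2 -0.44 ± 0.30, adjusted p = 0.815). Of its exon bases, 16.8% are shared with the antisense gene Gm14703. Its relative Synpr was at 0 to 5.22 TPM and not tested. Syngr3 and Syngr1, synaptogyrins of neuronal vesicles, stood at 31.8 to 74.0 TPM and 18.8 to 37.6 TPM over the 6 libraries without passing. Snap91, the clathrin adaptor of vesicle recycling, stood at 89.9 to 137 TPM against 119.7 and 94.5 TPM (log2 0.09 ± 0.23).

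Synapsins tether vesicles to one another in the reserve pool. Syn1 (chromosome X, 20860511 to 20920918), whose promoter is widely used to drive transgenes in neurons, stood at 214, 144, 151 and 226 TPM in Pomc neurons and 156 and 203 TPM in Npy neurons. Its log2 fold change of 0.02 ± 0.24 (interval -0.52 to 0.56) was among the smallest of the set. Syn3, a form of developing neurons, differed little among the Pomc libraries (36.7 to 38.6 TPM) and lay on both sides of them in the Npy libraries, at 55.0 and 24.9 TPM; 14.1% of its exon bases are shared with Timp3 on the opposite strand. Syn1 exceeded Syn2 by 9.24 to 11.6 times in the Pomc libraries and by 7.67 and 8.42 times in the Npy libraries, without overlap.

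Promoter windows were searched because many genes of this machinery are known targets of REST, a repressor that keeps neuronal genes off outside neurons through the RE1 element; the windows of Syn1 and Unc13a are shown because they hold the left part of that element. The window runs from 250 bases before to 50 after the annotated start (RefSeq, GRCm38.p6), and 57 of the 73 genes had an entry. The left part of the RE1 consensus, searched as TTCAGCACC on both strands, was found in Syn1 and Unc13a, 2 of the 57, and in 0.433% of all 27025 genes with a window. The right part, GGACAG, was found in 13 of the 57 and in 24.7% of all genes. The cyclic AMP response element TGACGTCA was found in Syn1 alone, and in 2.03% of all genes. In the sequences, each read 5′ to 3′ on the gene's own strand, capitals mark matches to these 3 motifs; in Unc13a the paired match near the start is to the reverse strand, and its parts lie farther apart than in the RE1 consensus.
Syn1, chrX:20920869-20921168, minus strand: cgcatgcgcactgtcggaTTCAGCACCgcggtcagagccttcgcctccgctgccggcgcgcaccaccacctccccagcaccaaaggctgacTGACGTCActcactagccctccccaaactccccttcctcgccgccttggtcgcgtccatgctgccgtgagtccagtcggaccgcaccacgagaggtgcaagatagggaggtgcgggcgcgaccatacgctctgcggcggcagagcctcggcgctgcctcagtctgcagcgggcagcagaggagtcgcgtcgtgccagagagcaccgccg
Unc13a, chr8:71671708-71672007, minus strand: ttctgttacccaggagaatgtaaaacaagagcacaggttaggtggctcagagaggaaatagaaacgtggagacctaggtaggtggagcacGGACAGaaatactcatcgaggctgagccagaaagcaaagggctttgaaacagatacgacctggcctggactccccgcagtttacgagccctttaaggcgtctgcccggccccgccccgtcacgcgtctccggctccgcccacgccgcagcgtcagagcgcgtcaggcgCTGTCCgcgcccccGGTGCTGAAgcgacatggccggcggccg
In Syn1 the RE1 part begins at position -232 and the response element at position -159 from the start. A match describes letters only, and no binding was measured here.

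**Figure D3:**
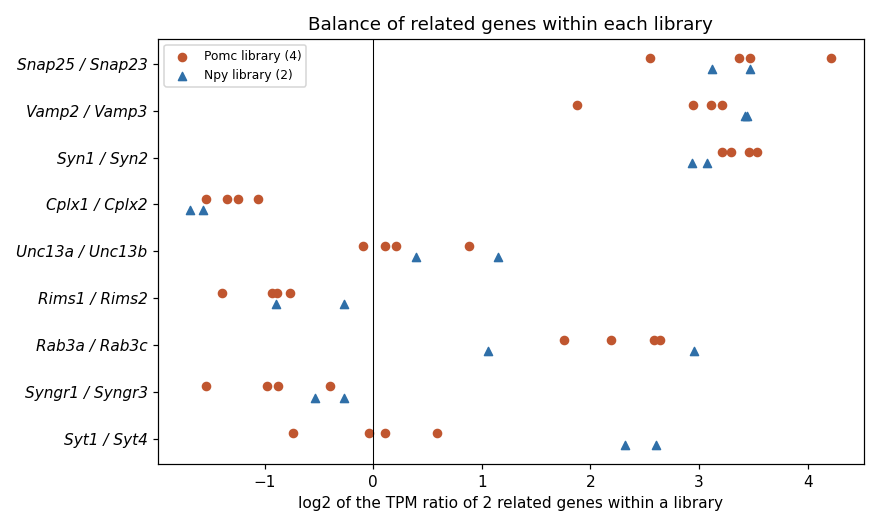
The log2 ratio of the TPM of 2 related genes within each library, for 9 pairs in which both genes reached 1 TPM in all 6 libraries (circles for Pomc, triangles for Npy libraries). Syt1 over Syt4 lies at 0.599 to 1.501 times in the Pomc libraries and at 4.97 and 6.06 times in the Npy libraries, the widest gap among the pairs.

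Ratios of this kind do not move with a library's total. The groups did not overlap for Syt1 over Syt4, Vamp2 over Vamp3, Syn1 over Syn2 and Cplx1 over Cplx2. The share of other gene pairs without overlap was not computed, so the number of such pairs is read as a description. In the Cplx1 pair the gap was narrow, 0.345 to 0.478 in the Pomc libraries against 0.312 and 0.337. The pairs of Snap25, Unc13a, Rims1, Rab3a and Syngr1 with their relatives overlapped. No test was made of any ratio.

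The 12 genes that reached 100 TPM in all 6 libraries included Syp, Rab3a, Vamp2, Snap47, Syt11, Syn1, Snap25, Syt1, Sv2a and Stx12, among them the vesicle SNARE, its SNAP-25 partner and the fast calcium sensor. None passed by limma, and none did at an unadjusted p under 0.05. In 11 of the 12 the 95% interval stayed within 1 log2 unit of 0 (91.7%, against 89.2% of the 1408 other genes at this level), and Syp was the exception, at -1.11 to 0.23. In none of the 12 did the groups separate, against 17.8% of the others. Across all 73 genes, log2(TPM + 1) correlated at r = 0.921 to 0.964 between Pomc libraries, 0.971 between the Npy libraries and 0.888 to 0.974 between the groups; genes within a library share its depth and total.

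Genes that work beside these were read from 6 further lists. Of 21 active zone and release regulators, 1 was higher in Pomc neurons. This was Doc2b, a high-affinity calcium sensor of spontaneous and asynchronous release with the same paired calcium-binding domains as synaptotagmins. It stood at 90.7, 61.7, 54.5 and 72.2 TPM in Pomc neurons and 20.7 and 10.6 TPM in Npy neurons, and all 4 Pomc libraries lay above both Npy libraries (log2 2.13 ± 0.34, limma adjusted p = 0.0377). That call ended without any 1 library other than Npy replicate 1 (adjusted p up to 0.336), with a pseudocount of 0.1 (0.0518), 1 prior variance for all genes (0.129), no filter on low values (0.0965) and the libraries centred on the pan-neuronal genes (0.0519). The most abundant gene of that list, Rph3a, which encodes the Rab3 effector rabphilin, had a log2 fold change of -0.04 ± 0.24.

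Of 4 tested vesicular transmitter transporters, 1 was higher in Pomc neurons. Slc17a6, the glutamate transporter VGLUT2, stood at 62.0, 57.3, 67.0 and 55.9 TPM against 5.85 and 1.43 TPM (limma adjusted p = 0.0066). Slc32a1, the transporter of GABA, lay the other way, at 48.1, 70.2, 46.8 and 26.9 TPM against 124 and 160 TPM (log2 -1.61 ± 0.35, adjusted p = 0.151). None passed by limma among 25 endocytosis genes (1 higher and 1 lower at an unadjusted p under 0.05, median log2 0.13), 16 subunits of the vesicle's proton pump (1 and 0, median -0.013), 10 other vesicle proteins and SNARE cofactors (0 and 0, median 0.11) and 12 SNAREs of the Golgi, endoplasmic reticulum and endosome (0 and 0, median -0.11). Their most abundant genes were Hspa8, the chaperone that uncoats clathrin (log2 0.24 ± 0.25), the proton pore subunit Atp6v0c (0.04 ± 0.22), Scamp1 (-0.16 ± 0.19) and Vti1b (-0.26 ± 0.23).

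**Figure D4:**
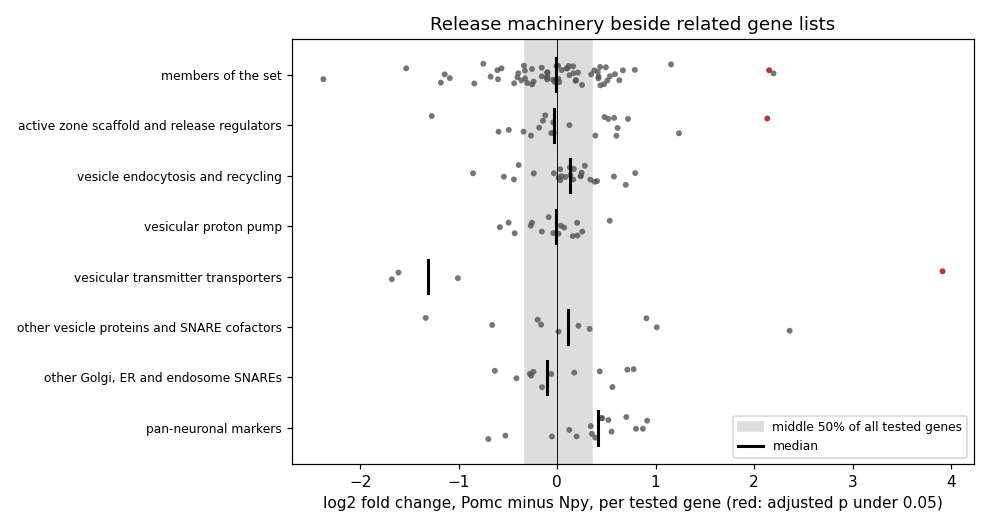
Log2 fold changes (Pomc minus Npy, horizontal axis) of the tested genes of the set, of 6 related lists and of 16 pan-neuronal genes, with the list median as a black bar and the middle 50% of all tested genes shaded; vertical scatter within a list carries no value. Syt4, Doc2b and Slc17a6 are the points past the threshold, and the median of the pan-neuronal genes, 0.42, lies to the right of the set's -0.0084.

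Pan-neuronal genes outside the machinery had a median log2 fold change of 0.42, with 13 of 16 above 0. None passed the threshold by limma. At a limma unadjusted p under 0.05 there were 5 of 16, all higher in Pomc neurons, against 7.36% of all tested genes in either direction. In 6 of the 16 (37.5%) the groups did not overlap, all with Pomc neurons higher, against 8.05% of all tested genes in that direction. With the libraries centred on the 16 pan-neuronal genes, Syt4 was still the 1 gene of the set called.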

How the data were processed

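Libraries were prepared from 1 ng of total RNA with a stranded total RNA kit, per the labels' protocols. HISAT2, the mm10 build and edgeR 3.8 are named, with no role or order, per the submitters' processing notes; the counting tool, annotation, strand setting and length definition are not stated in the sources used. The deposited values were taken as TPM, scaled by the authors before deposit so that each of the 6 columns used sums to 1000000, as the columns themselves show; the header names no unit. Read depth cannot be read from TPM and is unknown. The 4 rows with a repeated symbol were left out of 18335.

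From these values, limma 3.58.1 (R 4.3.3, prior variance with a mean trend) was fitted to log2(TPM + 1) over the 13845 genes with 1 TPM in at least 2 libraries, two-sided, with Benjamini-Hochberg adjustment over all of them. Fold changes are on this scale, which understates those of low genes. A value of 0 is read as listed at 0, not as absence. Tested on simulated data of 13845 genes for 4 against 2 libraries, the fit called 42% of 50 genes changed by 1 log2 unit and 90% of 50 changed by 2. The changed genes were drawn only from those above the median level. Each gene's noise was independent and normal, with an SD set by the smoothed trend with level. The shares therefore do not describe genes of low level or of unusual scatter.

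Named genes were those called, the most abundant of each role, the 10 largest differences without overlap, the 5 lowest p in each direction, and, of each related list, those called and the most abundant; genes outside this rule were named after their values were seen. The members and lists were chosen with earlier results of these data known. Alternatives changed the pseudocount, filter, scaling, prior variance, replicate block and libraries used. Marker lists of radial glia, microglia, endothelial cells, fibroblasts, red blood cells, dividing cells and pituitary cells were read beside the results and are given in the closing section. Values of 2 of the genes are not reported here.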

Additional observations from a re-analysis of the deposited data

How the results depend on the processing

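Over 17 alternatives the number of genes of the set called higher in Pomc neurons was 1 or 0, and it was 0 with no filter on low values, under 1 common prior variance and with the replicate block; leaving out single libraries gave 0 to 1. None was called lower by limma in any of them. The median log2 fold change of the set was 0.090 without Npy replicate 1 and -0.13 without Npy replicate 2, the ends of its range over single libraries left out, and -0.34 after centring on pan-neuronal genes. Of 32 named genes, 20 kept their sign in every alternative they were fitted in (Syt12 did not pass the filter of 5 TPM in at least 3 libraries); the 12 that changed sign had not passed the test. With the replicate block the adjusted p of Syt4 was 0.0674, of Doc2b 0.156 and of Slc17a6 0.0667. The groups share only the numbers 1 and 2, whose deviations correlated at -0.044 and -0.033, and the labels name no shared animal. The whole table gave 57 calls, 12 with the block, 37 with a pseudocount of 0.1, 33 with no filter, 22 to 69 with a library left out and 205 with all 7 columns, where Slc32a1 passed (adjusted p = 0.0297). That last fit counts the third Npy column, calculated from the other 2, as a library of its own, and its calls carry no added measurement. The cause of the other shifts was not tested. With 2 Npy libraries, differences of 2-fold or less were often not detectable at this precision, and depth is unknown.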

Other observations

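Values of the other cell types that the dissection could hold were as follows. Dividing-cell genes summed to 36.3 to 83.8 TPM in the Pomc libraries and 140 and 87.4 TPM in the Npy libraries. Pcna made up most of that sum in each Pomc library and was the 1 gene of this list above 0 (log2 0.713). The other 7 of the 8 tested genes had log2 fold changes below 0, and the median of the 8 was -1.955. In Top2a, Ccnb1, Ccna2 and Birc5 the groups did not overlap, with Npy neurons above. None of the 8 passed by limma (adjusted p = 0.593, 0.310, 0.546 and 0.230 for these 4). Radial glia, astrocyte and tanycyte genes summed to 274 to 638 TPM and to 606 and 405 TPM, with Gfap at 0 in all 6. Vim made up most of that sum in the Pomc libraries, at 201 to 530 TPM, against 206 and 155 TPM in the Npy libraries. Fabp7 ranged over 1.61 to 61.6 TPM in Pomc neurons against 323 and 176 TPM in Npy neurons, Nes at 14.6 to 26.4 against 49.0 and 40.05 TPM, and Hes5 at 0.999 to 9.58 against 14.0 and 28.9 TPM. For these 3 genes the groups did not overlap, with Npy neurons above, and none passed by limma (adjusted p = 0.272, 0.418 and 0.699). That is 3 of the 8 tested genes of this list (37.5%), against 7.86% of all tested genes in that direction. Of the 8, 5 had log2 fold changes below 0. The 3 above 0 were Rax, Vim and Aldh1l1 (1.61, 0.745 and 0.14), in which the groups overlapped. The part of these cell types in the results was not tested. Red blood cell genes summed to 0, 36.0, 2.36 and 88.8 TPM in Pomc replicates 1 to 4 and to 1.31 and 0 TPM in the Npy libraries. Microglial genes summed to at most 43.0 TPM, in Pomc replicate 4, endothelial and pericyte genes to at most 11.8 TPM, fibroblast genes to at most 10.2 TPM and pituitary genes to at most 9.30 TPM.

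Pomc replicate 4, where Rims4 was listed at 0 and Syt3 at 0.0964 TPM, had the fewest genes above 0 of the 6 libraries, 12493 against 12922 to 14933. In each of the 32 named genes and in the summed level of the set, no Pomc library stood far enough from the other 3 to pass Dixon's criterion. Genes outside the naming rule, Rims4 among them, were not set against it.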
